A study of Rattus norvegicus with 56 samples.

Results

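In brain tissue on the haemorrhage side of 21-month rats, 4635 genomic regions had an H3K9ac peak after treatment with plasma of 3-month rats and after treatment with plasma of 22-month rats, but no peak in tissue of that age and side without plasma. They were found by joining overlapping peaks of the 3 H3K9ac lists into 174800 regions and keeping those with a peak in both plasma lists and none in the untreated list, which is 2.65% of the joined regions. The 4635 regions, called the both-plasma regions here, covered 3.03 Mb in all. The regions were chosen by the presence of peaks in these 3 lists, so that presence and the folds in the plasma lists are given as a description with no test.

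The study profiled H3K4me3, H3K9ac and H3K27me3 by ChIP-seq in rats with intracerebral haemorrhage, in which bleeding into the brain tissue injures one side. The plasma-treated groups are ipsilateral brain of 21-month rats given plasma of 3-month rats or plasma of 22-month rats, profiled for H3K9ac and H3K27me3. The groups with no agent are ipsilateral and contralateral brain at 21 months and at 13 months, profiled for all 3 marks, and every group carries the haemorrhage. The age of the older rats is 21 months in the sample labels and 22 months in the text on the series. The labels give no strain, sex or brain region, no time after the haemorrhage, and no plasma dose or vehicle-only group. They do not say whether libraries came from separate animals.

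H3K9ac is acetylation of lysine 9 of histone H3, a mark of active promoters and enhancers that histone acetyltransferases place and histone deacetylases remove. H3K4me3 is concentrated at the starts of active or poised genes. H3K27me3 is deposited by Polycomb repressive complex 2 over silenced genes, often in broad domains, and it lies on another residue of the histone tail than the acetylation followed here. In bulk tissue, fewer cells carrying a mark and less of the mark per cell cannot be told apart.

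The authors called peaks with MACS2 against input chromatin. Each plasma list rests on 1 ChIP and 1 input library and each untreated list on 2 of each, pooled before calling, so no spread between replicates exists and no difference below has a replicate check. The H3K9ac lists hold 50651 peaks with plasma of 3-month rats, 123863 with plasma of 22-month rats and 102607 without plasma, from 57426239, 56130825 and 66910243 ChIP tags kept. The file headers place the plasma lists in one processing folder and the untreated 21-month H3K9ac lists of both sides in another, so plasma treatment and that folder cannot be told apart. A fold is the authors' enrichment of a peak over local background, and the fold of a region in a list is that of its highest peak there. Shares carry 95% Wilson intervals, which cover counting error over regions only, since regions are not replicates. The main shares are set beside those over all 174800 joined regions.

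The both-plasma regions were short and of middling strength in both plasma lists. Their median length was 586 bp (quartiles 450 to 780 bp, range 227 to 4780 bp), and 511 of them (11.0%) reached 1 kb. The 22685 regions with a peak in all 3 lists had a median of 1629 bp, and the regions found in a plasma list alone had medians of 311 bp for plasma of 3-month rats and 322 bp for plasma of 22-month rats. The fold at the both-plasma regions had a median of 3.30 with plasma of 3-month rats (quartiles 2.82 to 3.88, range 1.39 to 7.78) and of 3.29 with plasma of 22-month rats (quartiles 2.88 to 3.83, range 1.41 to 9.45). By fold these peaks ranked near the middle of their own lists, at median percentiles of 46.1 and 46.9. In the regions with all 3 lists the median percentiles were 66.3 with plasma of 3-month rats and 90.6 with plasma of 22-month rats.

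The median folds of the 2 plasma lists were close at the both-plasma regions, which were chosen through these same lists. The fold was higher with plasma of 3-month rats in 2266 of them (48.9%), while this held for 9.89% of the regions with all 3 lists, where the median folds were 3.85 with plasma of 3-month rats and 7.26 with plasma of 22-month rats. The folds are not corrected for depth or background between lists. Most both-plasma regions were built from a lone peak in each list, 4535 with plasma of 3-month rats and 4518 with plasma of 22-month rats. The summits of the 2 plasma peaks lay a median of 142 bp apart and within 100 bp in 1765 regions (38.1%), against 94 bp and 51.9% in the regions with all 3 lists.

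An untreated peak was seldom lacking where both plasma peaks were strong. It was most often lacking at folds of 2.5 to 3.5, not at the lowest folds. Of the 27320 regions with a peak in both plasma lists, 17.0% lacked an untreated peak. Taking the lower of the 2 plasma folds of each region, this share was 20.7% below a fold of 2.5, 30.7% from 2.5 to 3, 30.0% from 3 to 3.5, 17.7% from 3.5 to 4, 5.07% from 4 to 5 and 0.378% at 5 or more (23 of 6088 regions). The lower fold had a median of 2.93 in the both-plasma regions and reached 4 in 232 of them (5.01%), against a median of 3.71 and 44.0% in the regions with all 3 lists. Among regions present in 2 lists of the 3, lack of the list with plasma of 22-month rats was rarer, at 7.79% of 24601 regions. Lack of the list with plasma of 3-month rats, the shortest list, was commoner, at 57.9% of 53894 regions.

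**Figure D1:**
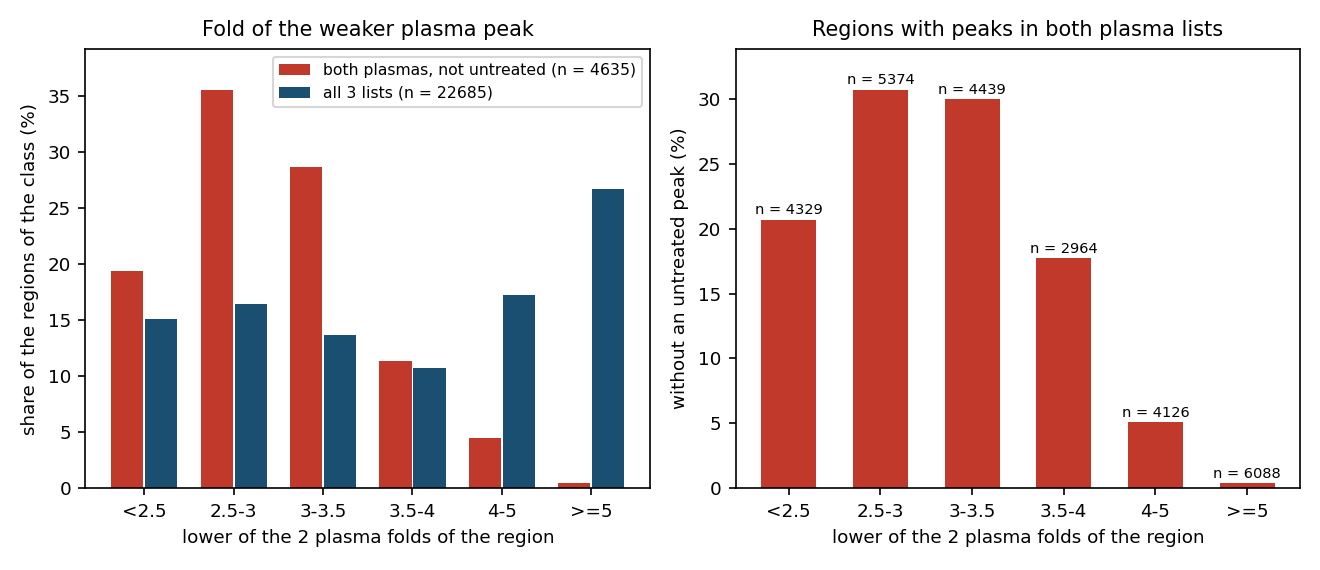
Left, share of the both-plasma regions (red) and of the regions with a peak in all 3 lists (blue) by the lower of the 2 plasma folds. Right, percent of all regions with peaks in both plasma lists that lack an untreated peak, in the same classes of fold, with the number of regions above each bar. The share without an untreated peak was 30.7% at folds of 2.5 to 3 and 0.378% at 5 or more.

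The few regions on either side of the edge of the rule were close in median lower plasma fold, the one trait compared. The 12 both-plasma regions closest to an untreated peak lay at most 10 bp from it and had a median lower fold of 2.88. The 10 regions counted as present in all 3 lists through an overlap of at most 10 bp had a median lower fold of 2.81.

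Most both-plasma regions carried an H3K9ac peak elsewhere in untreated brain. A peak was present in at least 1 of the other 3 untreated H3K9ac lists in 3882 of the 4635 regions, or 83.8% (82.7 to 84.8%), against 54.9% of all joined regions. This share was 82.0% with plasma of 3-month rats and untreated tissue and 77.3% with plasma of 22-month rats and untreated tissue. It was 99.1% in the regions with all 3 lists. At the both-plasma regions, the opposite hemisphere of rats of the same age gave most of the share. The 21-month contralateral list had a peak in 3575 regions, or 77.1% (75.9 to 78.3%), against 39.9% of all joined regions. The 13-month shares lay closer to those of all joined regions when regions of every length were pooled. A peak was present in 1457 regions (31.4%) on the ipsilateral side at 13 months, against 26.6% of all joined regions, and in 1672 regions (36.1%) on the contralateral side, against 36.2%.

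Of these other 3 untreated lists, the 21-month contralateral list was the sole one with a peak in 1538 regions (33.2%). Counted in the same way, with the untreated 21-month ipsilateral list left aside, this held for a smaller share of all joined regions, 20944 of 174800. All 3 other untreated lists had one in 733 regions (15.8%), near the 17.5% of all joined regions. No H3K9ac peak was present in any untreated list in 753 regions (16.2%), and none of the other 3 lists had one in 45.1% of all joined regions. Without the 21-month contralateral list, 50.6% of the both-plasma regions and 42.9% of all joined regions had a peak in another of these lists. Without the 13-month ipsilateral list, in which 82% of ChIP tags were duplicates and 19323327 tags were kept, the shares were 81.3% and 51.3%. The 21-month contralateral list is the deepest of the H3K9ac lists, with 99213634 ChIP tags kept and 120348 peaks, against 69557 peaks at 13 months on the ipsilateral side and 93770 on the contralateral side. The parts of depth, duplicates and processing folder in these shares were not tested.

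Among regions found in 2 lists, and likewise among regions found in 1 list, the share with a 21-month contralateral peak was higher where plasma of 3-month rats had a peak. It was 77.1% in the both-plasma regions and 72.9% in the regions with plasma of 3-month rats and untreated tissue but not plasma of 22-month rats. In the regions with plasma of 22-month rats and untreated tissue it was 49.8%. It was 44.0% where plasma of 3-month rats gave the sole peak, and 19.1% and 22.8% where plasma of 22-month rats or untreated tissue did. The 13-month contralateral list ordered the paired classes the other way, at 36.1% of the both-plasma regions, 40.6% of those with plasma of 3-month rats and untreated tissue and 60.4% of those with plasma of 22-month rats and untreated tissue. The regions with all 3 lists were highest throughout, at 96.4% for the 21-month contralateral list.

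**Figure D2:**
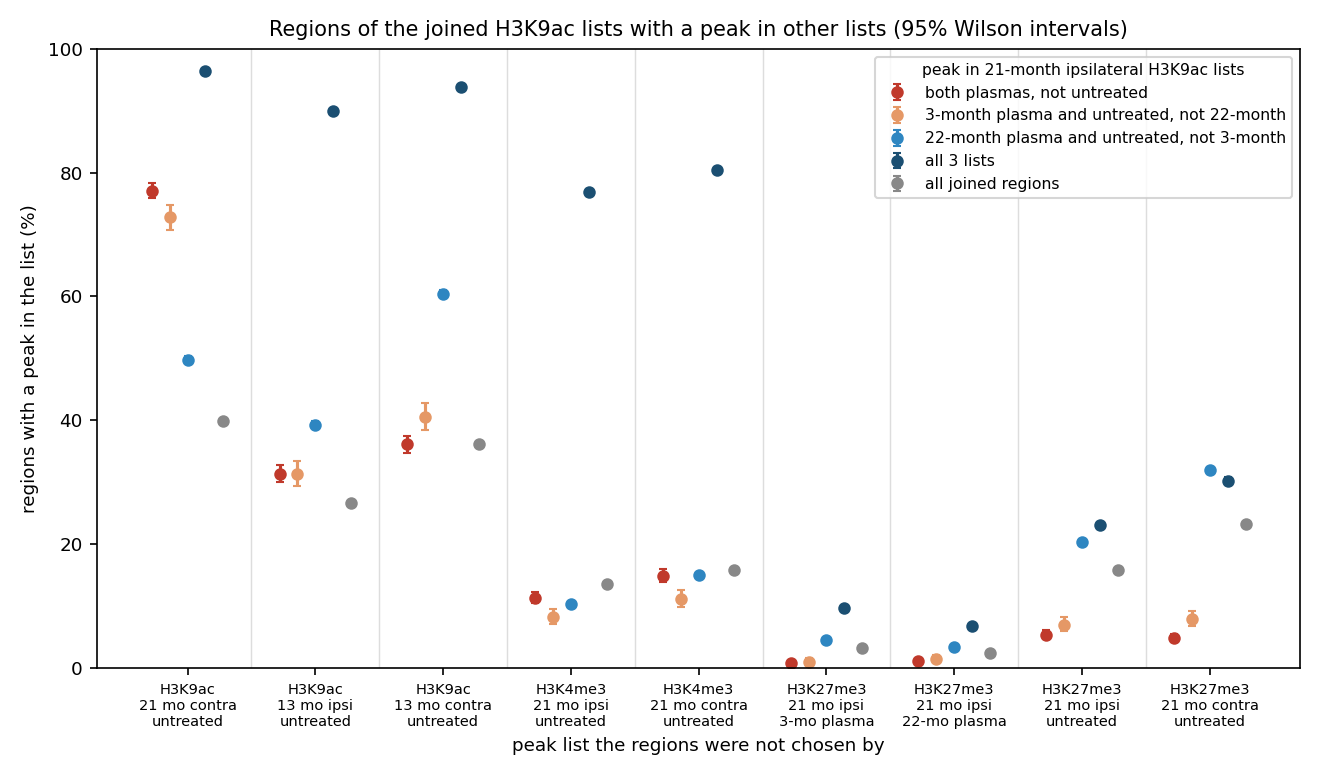
Percent of regions with a peak in 9 lists that did not enter the choice of regions (x axis), for the both-plasma regions (red), 3 other classes of joined regions and all joined regions (grey); bars are 95% Wilson intervals over regions. The both-plasma regions stand at 77.1% for 21-month contralateral H3K9ac and at 5.37% for untreated 21-month ipsilateral H3K27me3, where all joined regions stand at 39.9% and 15.9%.

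By length, the 21-month contralateral share was higher in the both-plasma regions than in all other joined regions in each class, whereas the 13-month shares were higher under 400 bp and lower at 800 bp or more. Among regions under 400 bp, 62.9% of the both-plasma regions and 21.9% of all other joined regions had a 21-month contralateral H3K9ac peak. From 600 to 800 bp the shares were 80.3% and 49.3%. At 1 kb or more they were 93.0% and 88.5%. From 600 to 800 bp, the regions with plasma of 3-month rats and untreated tissue stood at 80.9% and those with plasma of 22-month rats and untreated tissue at 48.4%. The 13-month contralateral list had a peak in 23.6% of the both-plasma regions and 16.0% of all other joined regions under 400 bp, in 40.7% and 51.5% from 600 to 800 bp, and in 55.0% and 92.5% at 1 kb or more. For the 13-month ipsilateral list these shares were 18.2% and 9.02% under 400 bp, and 54.6% and 84.5% at 1 kb or more.

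Where a peak was present, its fold at the both-plasma regions had a median of 3.45 in the 21-month contralateral list, 4.27 at 13 months on the ipsilateral side and 3.40 at 13 months on the contralateral side. A fold of 8 or more was reached in 0 of the 4635 regions with plasma of 3-month rats, where the whole list holds 682 such peaks, and in 6 with plasma of 22-month rats, where it holds 10261. It was reached in 33 regions in the 21-month contralateral list, which holds 1215 such peaks. At 13 months it was reached in 57 regions on the ipsilateral side, with a highest fold of 26.1, and in 46 on the contralateral side, in lists that hold 10681 and 10152 such peaks.

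H3K4me3 was found at a minority of the both-plasma regions, and its share was larger at those with stronger acetylation peaks. An H3K4me3 peak of untreated 21-month tissue overlapped 526 regions on the ipsilateral side, or 11.3% (10.5 to 12.3%), against 13.6% of all joined regions, and 692 on the contralateral side, or 14.9% against 15.9%. At 13 months the shares were 8.93% on the ipsilateral side (414 regions), against 13.1% of all joined regions, and 7.64% on the contralateral side (354 regions), against 12.2%. No H3K4me3 list has plasma. None of the 4 H3K4me3 lists had a peak in 3830 regions (82.6%), near the 83.1% of all joined regions. All 4 had one in 259 regions (5.59%), against 11.3% of all joined regions. In 179 (3.86%) the 21-month contralateral list, the longest of the 4 with 35063 peaks, was the sole one. That last count was not made over all joined regions.

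The H3K4me3 peaks at the both-plasma regions had lower folds than those at the regions with all 3 lists, as did those at the other regions found in 2 lists. On the ipsilateral side at 21 months the median H3K4me3 fold was 4.56 at the both-plasma regions and 10.7 at the regions with all 3 lists, and on the contralateral side 4.79 and 14.6. In the regions with untreated tissue and 1 plasma, the ipsilateral median was 4.51 for plasma of 3-month rats and 3.76 for plasma of 22-month rats. A fold of 8 or more was reached at 124 both-plasma regions on the ipsilateral side and 217 on the contralateral side. These 21-month H3K4me3 lists hold 12420 and 15064 such peaks. The median distance of a both-plasma region to the nearest 21-month ipsilateral H3K4me3 peak was 7.64 kb, and 2697 regions (58.2%) lay over 5 kb away. This distance was measured for the both-plasma regions alone, so it is not read as a trait of theirs.

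The share with 21-month ipsilateral H3K4me3 was 8.14% of the both-plasma regions with a lower plasma fold under 2.5, 16.9% from 3.5 to 4, 36.8% from 4 to 5 and 73.9% at 5 or more (17 of 23 regions). In the regions with all 3 lists the shares in these classes of fold were higher, at 46.3%, 82.6%, 94.8% and 99.6%. With each H3K9ac list limited to its 50651 peaks of highest −log10 q-value, 2852 regions met the rule, and 25.4% of them had 21-month ipsilateral H3K4me3. At this setting no share over all joined regions is given. Length gave a different order. Under 400 bp, 8.29% of the both-plasma regions and 2.27% of all other joined regions had this mark. At 1 kb or more it was 18.6% and 61.7%. In the regions with plasma of 3-month rats and untreated tissue, it was 6.99% under 400 bp and 8.24% at 1 kb or more (7 of 85 regions). With plasma of 22-month rats and untreated tissue, these shares were 6.01% and 14.2%.

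**Figure D3:**
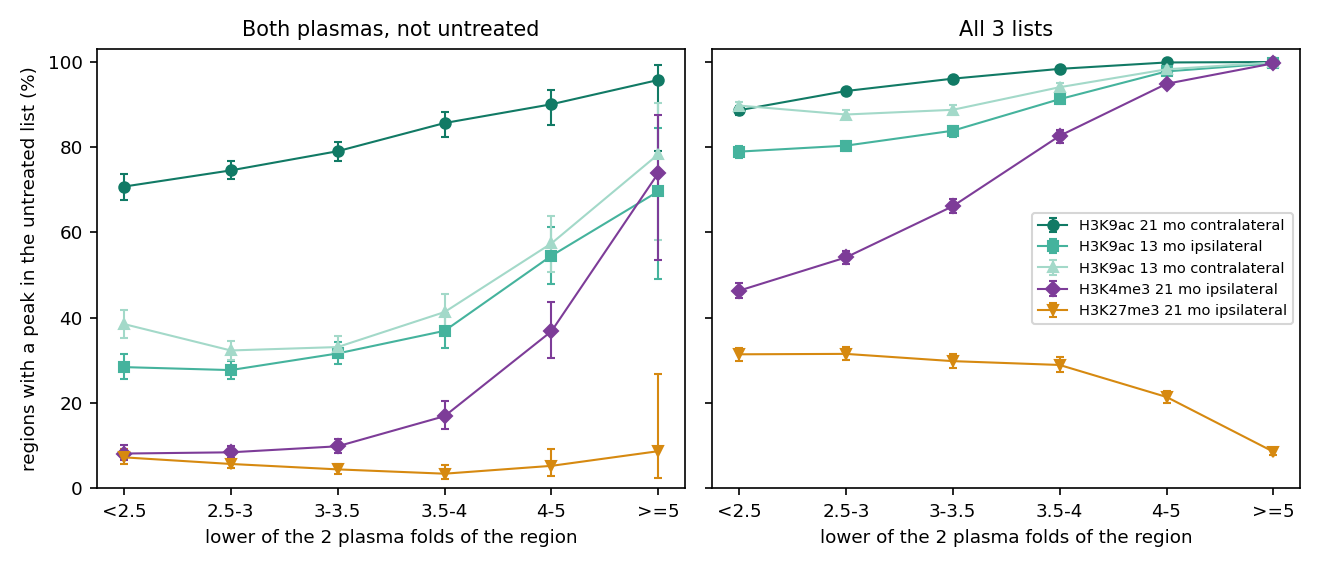
Percent of regions with a peak in 5 untreated lists (colours and symbols) by the lower of the 2 plasma folds, for the both-plasma regions (left) and for regions with a peak in all 3 joined lists (right); bars are 95% Wilson intervals over regions. H3K4me3 of 21-month ipsilateral tissue stands at 8.14% of the both-plasma regions below a fold of 2.5 and at 73.9% at 5 or more, and H3K9ac of 21-month contralateral tissue at 70.7% and 95.7%.

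H3K4me3 and untreated H3K9ac went together at the both-plasma regions. Of the 753 regions with H3K9ac in none of the other 3 untreated lists, 5.71% had H3K4me3 in at least 1 list. With H3K9ac in 1, 2 and 3 of those lists, the share was 9.20%, 20.8% and 43.0%. Over all joined regions the share also differed by the number of lists, at 2.67% with none and 7.04%, 17.2% and 67.1% with 1, 2 and 3. In the both-plasma regions, median length stood at 487, 554, 633 and 737 bp in the same order, and the median lower plasma fold at 2.84, 2.91, 2.94 and 3.08.

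H3K27me3 was uncommon at the both-plasma regions in every list. It was present in 34 regions (0.734%) with plasma of 3-month rats, against 3.18% of all joined regions, and in 49 (1.06%) with plasma of 22-month rats, against 2.44%. In untreated 21-month tissue it was present in 249 regions on the ipsilateral side, or 5.37% (4.76 to 6.06%), against 15.9% of all joined regions, and in 223 on the contralateral side, or 4.81% against 23.3%. At 13 months the shares were 3.13% on the ipsilateral side, against 7.39%, and 1.08% on the contralateral side, against 6.23%. The H3K27me3 lists differ in length, with 37241 peaks for plasma of 3-month rats, 51178 for plasma of 22-month rats and 300668 for untreated 21-month ipsilateral tissue. The part of list length in the gap between plasma and untreated shares was not tested.

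The H3K27me3 share was lower in the both-plasma regions at each class of length than in all other joined regions. In untreated 21-month ipsilateral tissue it was 5.03% of the both-plasma regions and 13.8% of all other joined regions under 400 bp, 5.14% and 17.9% from 600 to 800 bp, and 4.31% and 22.2% at 1 kb or more. With equal numbers of H3K9ac peaks per list, 9.08% of the 2852 regions that met the rule had the mark. No share over all joined regions stands beside it at this setting. Except where all 3 H3K9ac lists had a peak, the H3K27me3 share was lower in classes with a peak in the list of plasma of 3-month rats. The share was 5.37% in the both-plasma regions, 6.99% with plasma of 3-month rats and untreated tissue, and 3.74% with plasma of 3-month rats alone. It was 20.3% with plasma of 22-month rats and untreated tissue, 15.1% with plasma of 22-month rats alone, 16.4% in untreated tissue alone and 23.1% in the regions with all 3 lists.

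In 4370 both-plasma regions (94.3%) none of the 3 ipsilateral 21-month H3K27me3 lists had a peak, against 83.8% of all joined regions. The mark was called in untreated tissue and with neither plasma in 196 (4.23%), against 12.4% of all joined regions. It was called in untreated tissue and with 1 plasma in 39 (0.841% against 1.80%), and in untreated tissue and with both plasmas in 14 (0.302% against 1.71%). In 16 regions it was called with a plasma and not in untreated tissue, and this share of 0.345% lay near the 0.301% of all joined regions. Regions with untreated H3K27me3 had H3K4me3 more often, among the both-plasma regions and among all joined regions. At least 1 H3K4me3 list had a peak in 106 of the 249 regions with 21-month ipsilateral H3K27me3, or 42.6% (36.6 to 48.8%), against 15.9% (14.9 to 17.1%) of the 4386 without it. Over all joined regions these shares were 34.8% and 13.5%. In the 249 regions, the H3K27me3 peaks covered a median of 54.9% of the region, with a median fold of 2.85.

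Distance to acetylated chromatin in untreated tissue was measured for the both-plasma regions alone, so no share of other regions stands beside it. The nearest untreated 21-month ipsilateral H3K9ac peak lay a median of 2233 bp away (quartiles 734 to 7213.5 bp), and 1449 regions (31.3%) lay within 1 kb of one. For 651 of these 1449, that nearest peak belonged to a region present in all 3 lists. Within 200 bp of an untreated peak, 16.4% of the regions had 21-month ipsilateral H3K4me3 and 4.26% had H3K27me3. From 1 to 5 kb these shares were 5.97% and 3.22%.

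The 535 regions over 20 kb from an untreated peak had the highest share of both marks among the 5 classes of distance. Of them, 23.6% had 21-month ipsilateral H3K4me3 and 15.3% had H3K27me3, and 43 (8.04%) had H3K27me3 there with H3K4me3 in at least 1 list, against 63 (1.54%) of the 4100 nearer regions. Their median length of 576 bp and median lower fold of 2.99 lay close to the 587 bp and 2.93 of the nearer regions. H3K9ac of the 21-month contralateral list was present in 75.9% of the distant regions and 77.3% of the nearer ones.

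**Figure D4:**
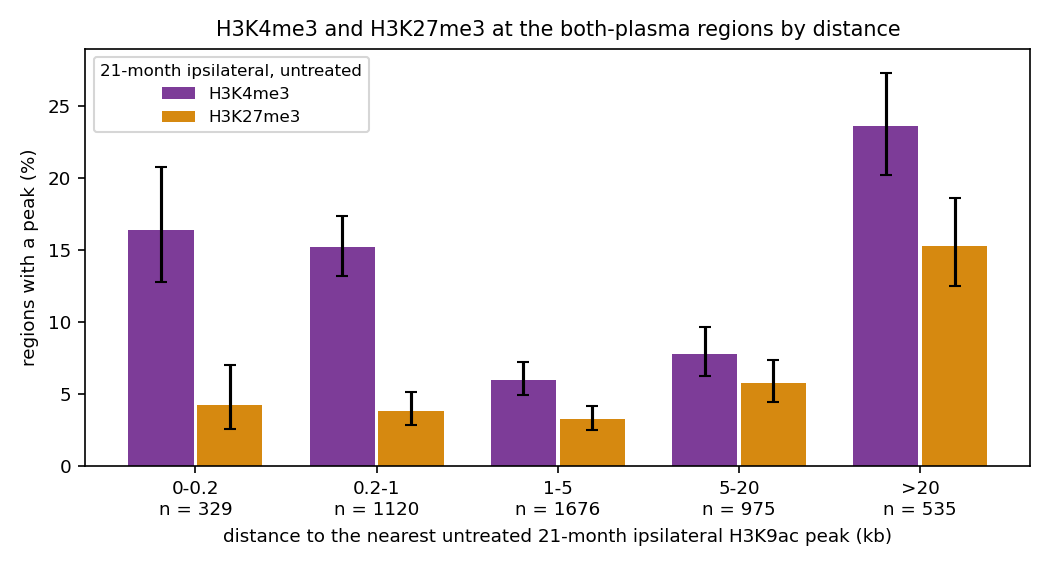
Percent of the both-plasma regions with an untreated 21-month ipsilateral H3K4me3 peak (purple) or H3K27me3 peak (orange), by distance to the nearest untreated 21-month ipsilateral H3K9ac peak; bars end in 95% Wilson intervals and n is the number of regions. H3K4me3 stands at 16.4% within 0.2 kb, 5.97% from 1 to 5 kb and 23.6% over 20 kb, and H3K27me3 at 4.26%, 3.22% and 15.3%.

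The regions were spread over the genome. Chromosome 1 held 484 of them, chromosome 2 held 450 and the X chromosome 34. As a share of the regions with peaks in both plasma lists, they made up 22.6% on chromosome 11 and 22.1% on chromosome 2, and 8.79% on chromosome 12 and 6.00% on the X chromosome. In all, 964 regions (20.8%) lay in 434 runs in which neighbours were at most 5 kb apart. Such runs were not counted for other joined regions. The largest run held 6 regions over 19.2 kb at chr7:144021197-144040446, with lower folds of 2.13 to 3.79. All 6 had a 21-month contralateral H3K9ac peak and none had H3K4me3 or H3K27me3 in 21-month ipsilateral tissue. The surrounding 1 Mb, from 144 to 145 Mb of chromosome 7, held 18 both-plasma regions among 57 with peaks in both plasma lists. The window from 74 to 75 Mb of chromosome 10 held the most, 20 of 61, and that from 78 to 79 Mb of chromosome 13 held 13 of 27.

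Coordinates follow the authors' lists, counted from 1, and no header or label names their build. For that reason no gene, exon or promoter was assigned to any region and no sequence is shown. Ranked by the lower plasma fold, the leading region was chr10:95123590-95124153 (564 bp), with folds of 6.43 with plasma of 3-month rats and 8.05 with plasma of 22-month rats. It had an H3K9ac fold of 4.66 in the 21-month contralateral list, and at 13 months a peak on the contralateral side and none on the ipsilateral side. All 4 H3K4me3 lists had a peak there, with folds of 6.88 and 9.51 at 21 months on the ipsilateral and contralateral sides and 8.18 and 8.31 at 13 months. The nearest untreated 21-month ipsilateral H3K9ac peak lay 4211 bp away.

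The sixth region, chr1:8875632-8877280 (1649 bp), had peaks in all H3K9ac and H3K4me3 lists but the untreated 21-month ipsilateral H3K9ac list. Its H3K9ac folds were 5.75 and 6.08 with plasma of 3-month and 22-month rats, 6.67 in the 21-month contralateral list, and 14.7 and 14.2 at 13 months on the ipsilateral and contralateral sides. Its H3K4me3 folds were 19.9 and 24.8 at 21 months on the ipsilateral and contralateral sides, and 14.7 and 22.5 at 13 months. An untreated 21-month ipsilateral H3K9ac peak lay 321 bp away.

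The eighth region, chr10:73787288-73788001, had folds of 7.44 and 5.51 with plasma of 3-month and 22-month rats and 8.43 in the 21-month contralateral list. H3K4me3 of untreated 21-month ipsilateral tissue covered all of its 714 bp with a fold of 19.0. The seventh, chr9:112046784-112047971, had folds of 5.64 and 6.79 with plasma of 3-month and 22-month rats and a 21-month ipsilateral H3K4me3 fold of 11.1. Both lay close to an untreated 21-month ipsilateral H3K9ac peak, at 245 bp for the eighth and 167 bp for the seventh.

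The second region, chr8:44991499-44993025, had folds of 6.29 and 7.22 with plasma of 3-month and 22-month rats and peaks in all 3 other untreated H3K9ac lists and all 4 H3K4me3 lists. The third, chr6:21004347-21005337, had folds of 7.13 and 6.23 with these plasmas and H3K4me3 at 21 months but not at 13 months. The fourth, chr1:201983543-201984605, did the opposite. It had folds of 6.09 and 8.40 with plasma of 3-month and 22-month rats, no H3K9ac peak and no H3K4me3 peak at 21 months on either side without plasma, and H3K4me3 folds of 5.70 and 4.94 at 13 months on the ipsilateral and contralateral sides.

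Distant from untreated acetylation was the fifth region, chr8:34325514-34326301. The nearest untreated 21-month ipsilateral H3K9ac peak lay 491.2 kb away, yet its folds were 7.69 and 5.86 with plasma of 3-month and 22-month rats, 7.34 in the 21-month contralateral list, and 6.27 and 6.03 at 13 months on the ipsilateral and contralateral sides. It was the one leading region with H3K27me3, with a fold of 4.68 in 21-month contralateral tissue. The ninth, chr7:40363993-40364792, had folds of 5.47 and 7.69 with plasma of 3-month and 22-month rats and lay 48.5 kb from an untreated peak. The tenth, chr16:14406420-14407109, had folds of 5.38 and 5.71 with these plasmas, a fold of 6.13 in the 21-month contralateral list, and no H3K4me3 peak in any list.

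**Figure D5:**
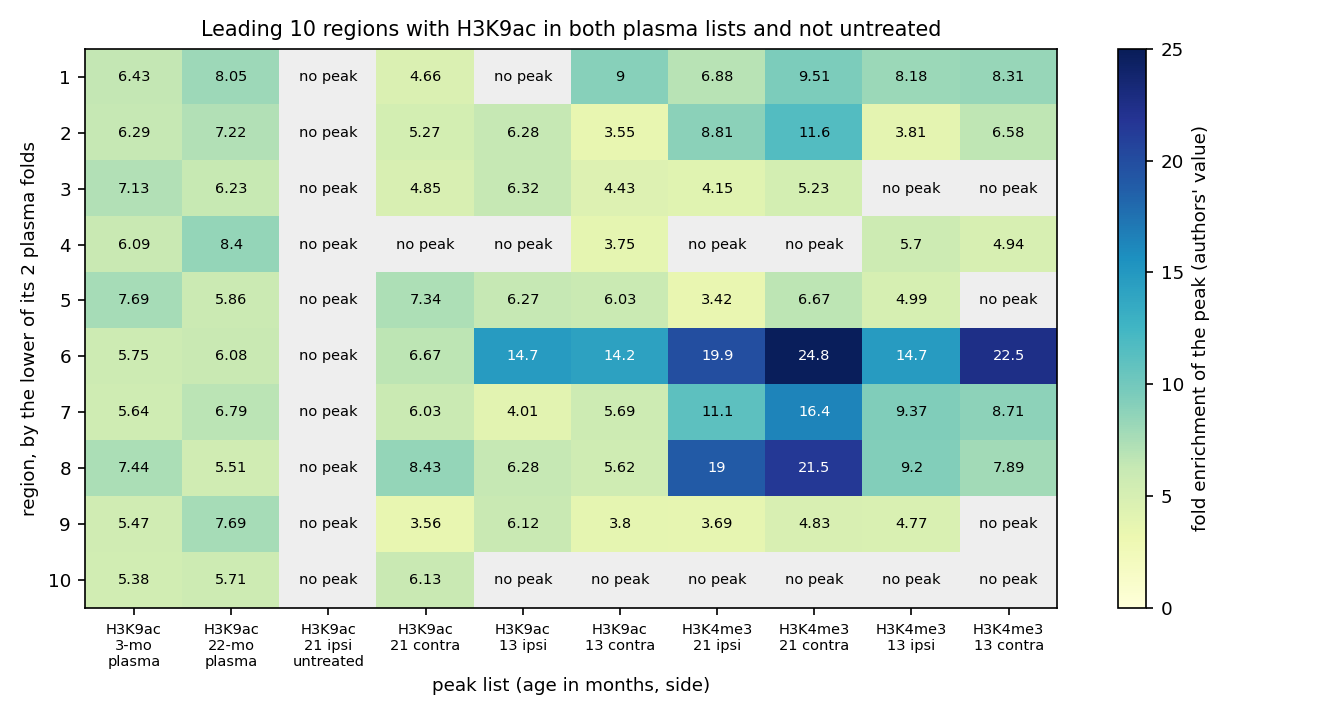
Fold enrichment (authors' value, colour and printed number) of the leading 10 both-plasma regions, in rows by the lower of their 2 plasma folds, in the 6 H3K9ac and 4 H3K4me3 lists; grey marks a list with no peak. The third column is empty by the rule, region 6 has H3K4me3 folds up to 24.8 beside plasma H3K9ac folds of 5.75 and 6.08, and region 10 has no H3K4me3 peak.

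Regions with H3K9ac in no untreated list and no H3K4me3 were ranked in the same way. The leading 5 had lower folds of 4.23 to 4.43. As a part of the both-plasma regions, they could not rank above the leaders of the whole, so no difference in strength is read from this. The first, chr4:60731063-60731408 (346 bp), had folds of 4.40 and 4.43 with plasma of 3-month and 22-month rats and lay 181.3 kb from an untreated 21-month ipsilateral H3K9ac peak. The third, chr2:58225710-58226053 (344 bp), had folds of 4.43 and 4.32 and lay 104.8 kb away. The others were chr18:27231794-27232762, chr10:62789112-62789611 and chr10:25902126-25902761, at 6.61, 0.522 and 5.29 kb. None of the 5 had an H3K27me3 peak in any of the 6 lists.

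Of the 14 regions with H3K27me3 in untreated 21-month ipsilateral tissue and with both plasmas, the leading one was chr7:61168910-61169399. H3K27me3 had a fold of 2.16 with plasma of 3-month rats, 2.63 with plasma of 22-month rats and 3.88 in untreated tissue, where the mark covered all 490 bp. Its H3K9ac folds were 3.78 and 6.20 with plasma of 3-month and 22-month rats. At the third, chr6:35310096-35310976, H3K27me3 folds were 6.09 and 3.15 with plasma of 3-month and 22-month rats and 9.51 in untreated tissue, beside a 21-month ipsilateral H3K4me3 fold of 10.3. The second, chr2:24596327-24597251, had H3K27me3 folds of 3.05, 3.29 and 2.88 in the same order.

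The longest both-plasma region, chr15:43705979-43710758 (4780 bp), joined 4 peaks with plasma of 3-month rats to 1 peak with plasma of 22-month rats, with folds of 6.09 and 5.09. H3K9ac was present in all 3 other untreated lists, with folds of 5.85 in the 21-month contralateral list and 6.09 and 3.42 at 13 months on the ipsilateral and contralateral sides. Neither it nor the next longest, chr12:47340473-47343238 (2766 bp) and chr7:144096696-144099252 (2557 bp), had H3K4me3 or H3K27me3 in any list. An untreated 21-month ipsilateral H3K9ac peak lay 644 bp from the longest, 197 bp from the second and 3.19 kb from the third.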

How the data were processed

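Histone-bound DNA from sonicated chromatin was sequenced paired-end on an Illumina NextSeq after ThruPLEX library preparation, per the labels' protocols. Cutadapt, Bowtie2 and HOMER are named, with no role stated, in the submitters' processing notes. Peak calling used MACS 2.1.1.20160309 at a q-value cutoff of 0.05, with tags handled as single-end, at most 1 tag kept per position and an effective genome size of 2.70 Gb, per the file headers. The build is not given in the sources cited here. The deposited values used are the fold enrichment, a ratio to local background, and the −log10 q-value of each peak, as the authors' caller wrote them. They describe, rank or filter peaks within a list; folds set side by side between lists are not corrected for depth, background or library number. H3K27me3 domains can be broken up by narrow calling.

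There are 16 lists from 28 ChIP and 28 input libraries, grouped by the labels. Peaks of the 3 joined H3K9ac lists that overlap by at least 1 bp, directly or in a chain, form a region, and a region has a peak of another list when they overlap by at least 1 bp. Python 3.11.15, numpy 2.4.6, pandas 2.3.3, scipy 1.17.1 and matplotlib 3.10.9 were used, and the joining was tested on simulated intervals. The regions named are, by the lower plasma fold, the first 10, the first 5 with H3K4me3 in all 4 lists, the first 5 with H3K9ac in all 3 other untreated lists, the first 5 with neither H3K9ac in untreated tissue nor H3K4me3, the first 3 with H3K27me3 in untreated and both plasma lists, and the 3 longest. The members and lists were chosen with earlier results of these data known. Gene and cell type lists were not used, because the regions could not be matched to genes without knowing the build. Breakdowns by distance, length, fold, number of untreated lists and joint marks were added after the data were seen. Alternatives were stricter peaks, equal list lengths, wider or narrower matching, assembled chromosomes alone and lists left out.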

Additional observations from a re-analysis of the deposited data

How the results depend on the processing

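The number of both-plasma regions, 4635, was 233 when plasma peaks needed a fold of 4 and 2852 when each H3K9ac list was cut to its 50651 best peaks by −log10 q-value. It stayed within 1.5 times at a −log10 q-value of 3 (3142), with an untreated peak within 1 kb counted as present (3186), with an overlap of 50% of the shorter peak (4016) and on assembled chromosomes alone (4635). In the order q-value, fold of 4, equal lists, 1 kb and 50% overlap, the share with 21-month ipsilateral H3K4me3, 11.3%, was 15.0%, 40.8%, 25.4%, 9.48% and 13.9%, and the share with H3K9ac in another untreated list, 83.8%, was 87.0%, 93.1%, 93.2%, 81.9% and 85.7%. The share with untreated 21-month ipsilateral H3K27me3, 5.37%, was 9.08% with equal lists, and that with H3K27me3 in both plasma lists, 0.302%, was 0.912% there and 0 of 233 regions at a fold of 4 (upper 95% Wilson limit 1.62%). With 50% of a region covered by the other mark, the shares were 6.11% for H3K4me3, 2.93% for untreated H3K27me3 and 0.108% for both plasmas. Leaving out a list, chosen after seeing the data, gave 81.3% without the 13-month ipsilateral list and 50.6% without the 21-month contralateral list. The cause of these moves was not tested, and no shares over all joined regions are set beside these values here.

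No paired analysis was possible because the results come from no test and the libraries of a group were pooled into 1 list. No library was left out for the same reason. A region without a peak in a list lies under that list's calling threshold.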
